A study of Mus musculus with 12 samples.

Results

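The CCAAT/enhancer-binding proteins (C/EBPs) were followed through 4 genes, Cebpa, Cebpb, Cebpd and Cebpg, chosen by their symbols among the 48440 genes of the deposited counts table. Primary hepatocytes had been isolated from Control mice and from Mettl3 cKO mice (Mettl3 flox/flox carrying 1 copy of Alb-Cre, which is driven by the albumin enhancer and promoter). Control animals, called WT in the sample labels, were littermates, and no age is stated for the mice that gave the cells. Cells were cultured for 16 h and exposed to 5 µM actinomycin D, a drug that blocks transcription, for 0, 2 or 6 h, so that the later fall of an mRNA can be read as decay. Each of the 6 combinations of genotype and time had 2 libraries, 12 in all, and the sources used here do not say whether these came from separate mice or cultures. All p-values therefore rest on a spread between libraries that may be technical only. Because the Mettl3 counts do not follow the genotype label at every time, the second genotype is called cKO-labelled where libraries are meant.

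C/EBPs are basic leucine zipper (bZIP) transcription factors that bind DNA as dimers with one another or with other bZIP proteins. In the liver, C/EBPα is known for hepatocyte differentiation and for glucose, lipid and urea metabolism. C/EBPβ and C/EBPδ are known for the acute phase response and for regeneration. C/EBPγ lacks a classical activation domain and acts mainly as a partner, for example of Atf4. Mettl3 is the catalytic subunit of the complex that places N6-methyladenosine (m6A) on mRNA, mostly around stop codons and in 3′ untranslated regions, and m6A-bearing mRNAs are in many cells turned over faster.

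All 4 genes were matched by identifier to the mm10 annotation of Gencode. Cebpa (ENSMUSG00000034957.10, chr7:35119293-35121928, plus strand) and Cebpg (ENSMUSG00000056216.9, chr7:35046422-35056573, minus strand) are neighbours separated by 62719 bp. Cebpb (ENSMUSG00000056501.3) lies at chr2:167688915-167690418 and Cebpd (ENSMUSG00000071637.5) at chr16:15887286-15891031, both on the plus strand. Their mRNAs differ most in the untranslated end. The 3′ untranslated region is 506 bases long in Cebpb-201, 1430 in Cebpa-201, 2900 in Cebpd-201 and 3962 in Cebpg-202, against a median of 1093 over 9416 transcripts, 1 for each of 9416 genes. Each is the longest annotated coding transcript of its gene. Which isoforms the cells made was not examined, and those of Cebpg differ much in length. GGACT, one spelling of the sequence that the m6A complex prefers, occurred 4 times in Cebpa-201, 4 times in Cebpb-201, 5 times in Cebpd-201 and 5 times in Cebpg-202, against a median of 3. The shorter GGAC occurred 14, 12, 24 and 14 times in the same order (median 13), which is 5.33, 7.98, 6.41 and 2.97 per kb of transcript (median 4.13). All 4 had GGACT after the stop codon. How many other mRNAs have it there was not counted, so it is not shown to be particular to the 4. The first of these copies is given for each mRNA with 12 bases on either side, GGACT in capitals. This first copy starts 103 bases after the stop codon in Cebpa, 192 in Cebpb, 129 in Cebpd and 220 in Cebpg. These are matches of letters, and no m6A measurement was analysed here.
Cebpa: ccgcgcaagccaGGACTaggagattccgg
Cebpb: caccgggtttcgGGACTtgatgcaatccg
Cebpd: agcttgggcactGGACTgcgagagaagct
Cebpg: aacaaaattcctGGACTttaatattctta

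AU-rich elements, built from ATTTA in the DNA spelling, are the other well-known mark of short-lived mRNAs, and here the members split. In the same transcripts, Cebpa and Cebpb had 0 copies of ATTTA in the 3′ untranslated region, Cebpd had 7 and Cebpg 10. The median over 9416 transcripts was 1, and 68.2% held at least 1. The regions of Cebpd and Cebpg are long, and per kb they held 2.41 and 2.52 copies. The median per kb was 1.29 over 9262 transcripts. The next stretch is shown because it holds the overlapping pair of copies in Cebpd, beside the first copy in Cebpg, with ATTTA in capitals.
Cebpd: tttaggttggacATTTATTTAttgtaaca
Cebpg: attagccatgtaATTTAtctggtcttaaa

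Promoters from RefSeq (GRCm38.p6, a window that spans the start site) were found for 3 of the members and are shown because the neighbours Cebpa and Cebpg can be compared in them. They are rich in G and C (67.3% for Cebpa, 80.7% for Cebpb and 71.7% for Cebpg, against a median of 52.7% over 32851 promoters). The palindromic C/EBP motif TTGCGCAA and its looser form TTGCNNAA, searched on both strands, were in none of the 3, and in 0.183% and 10.8% of all promoters. TATAAA, searched on the given strand only and chosen after the sequences had been seen, is in capitals. It was in Cebpa and Cebpb, not in Cebpg, and in 8.32% of all promoters. Counted in bases before the annotated start site, it began at 30 in Cebpa and at −21, past the start, in Cebpb. The match in Cebpb is thus not upstream of its start. The windows are chr7:35119043-35119342 (plus) for Cebpa, chr2:167688665-167688964 (plus) for Cebpb and chr7:35056517-35056816 (minus) for Cebpg.
Cebpa: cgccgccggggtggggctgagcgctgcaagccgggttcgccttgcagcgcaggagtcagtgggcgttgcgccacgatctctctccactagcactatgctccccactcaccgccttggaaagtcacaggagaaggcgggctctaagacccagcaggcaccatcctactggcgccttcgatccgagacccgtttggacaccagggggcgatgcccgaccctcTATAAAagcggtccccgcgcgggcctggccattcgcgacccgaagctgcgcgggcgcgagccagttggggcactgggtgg
Cebpb: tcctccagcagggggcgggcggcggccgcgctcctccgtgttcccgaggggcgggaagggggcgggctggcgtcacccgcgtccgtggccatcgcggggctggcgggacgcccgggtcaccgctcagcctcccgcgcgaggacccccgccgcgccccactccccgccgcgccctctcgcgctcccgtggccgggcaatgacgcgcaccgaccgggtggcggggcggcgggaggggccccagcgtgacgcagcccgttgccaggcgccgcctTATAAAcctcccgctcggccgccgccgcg
Cebpg: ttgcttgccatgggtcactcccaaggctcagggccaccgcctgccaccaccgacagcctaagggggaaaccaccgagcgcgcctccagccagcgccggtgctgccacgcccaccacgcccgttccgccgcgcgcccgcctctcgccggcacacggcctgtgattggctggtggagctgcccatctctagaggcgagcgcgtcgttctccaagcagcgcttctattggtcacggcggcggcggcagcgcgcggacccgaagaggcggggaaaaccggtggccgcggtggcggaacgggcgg

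Library totals ran from 16952084 to 20914516 reads. Mettl3 itself had 30.9 ± 3.48 CPM (reads per 1000000 reads of the library, mean ± SD, n = 2) in Control and 22.9 ± 0.433 (n = 2) in cKO-labelled libraries at 0 h (log2 difference −0.43, adjusted p = 0.00125). At 6 h the order was the opposite, 14.4 ± 0.948 in Control against 21.8 ± 3.35 (n = 2 each, log2 difference 0.60, adjusted p = 6.54e-05). Only exons 2 to 4 are deleted and reads of all exons were summed, which leaves the genotype unchecked. The 2 Control libraries at 6 h stood apart from the other 10. They had 16565 and 20246 reads of Xist, against at most 6 elsewhere, and at most 1 read of the Y-linked Ddx3y, against 2440 to 3210. Xist with next to no Ddx3y is the pattern of female cells, and the other 10 libraries had the pattern of male cells. The 6 h Control libraries thus came from other animals than the Control libraries of 0 and 2 h. Every value at 6 h in Control, and every change from 2 to 6 h there, rests on those 2 libraries. Time in the drug cannot be told apart from this change of animals. Values at 0 and 2 h do not use those libraries apart from the shared estimate of spread. Fitted to the 8 libraries of 0 and 2 h alone, every member kept its call in every comparison of those times. Hepatocyte markers (6 of 7 listed were found in the table) summed to 50564 CPM or more in every library. Their sum rose from 53399 to 54888 CPM at 0 h to between 98904.5 and 106731 at 6 h in Control. In cKO-labelled libraries it was at most 53886 at 0 h and 69014.5 to 69034.8 at 6 h. Most of each sum was Alb, with means of 47142 CPM at 0 h and 91546 at 6 h in Control. Its means in cKO-labelled libraries were 41648 and 51518 CPM. At 0 h 3 of the 6 markers were called higher and 3 lower in cKO-labelled libraries (31.9% and 22.5% of all genes). All values are shares of the library total, and the part of this rise in the C/EBP values was not tested.

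All 4 C/EBP mRNAs were higher in cKO-labelled libraries than in Control libraries at every time, and the distance was wider at 2 h than at 0 h. It was wider again at 6 h, where the Control libraries came from other animals, so this later step cannot be credited to time in the drug. At 0 h the ratio of the mean CPM ran from 1.27 (Cebpg) to 1.75 (Cebpb), at 2 h from 2.19 (Cebpa) to 5.99 (Cebpd) and at 6 h from 5.18 (Cebpa) to 15.8 (Cebpb). In edgeR's quasi-likelihood test, adjusted by the Benjamini-Hochberg method over 14488 genes with a threshold of 0.05, 4 of 4 passed as higher at 0 h, where 31.9% of all genes tested did. At 2 h 4 of 4 passed (37.8% of all genes were higher and 21.3% lower) and at 6 h 4 of 4 (46.4% and 19.8%). In Control all 4 fell from 0 to 2 h (36.3% of genes fell) and again from 2 to 6 h (48.4% fell and 9.83% rose). In cKO-labelled libraries 3 of 4 fell from 0 to 2 h (29.2% of genes) and 3 of 4 from 2 to 6 h (33% fell and 8.24% rose), Cebpg being the exception both times. The change from 0 to 2 h differed between genotypes, in the direction of a smaller fall in Mettl3 cKO, for 4 of 4 members (12.5% of genes, and 1.29% the other way), and so did the change from 2 to 6 h (26.3% and 3.78%).

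**Figure D1:**
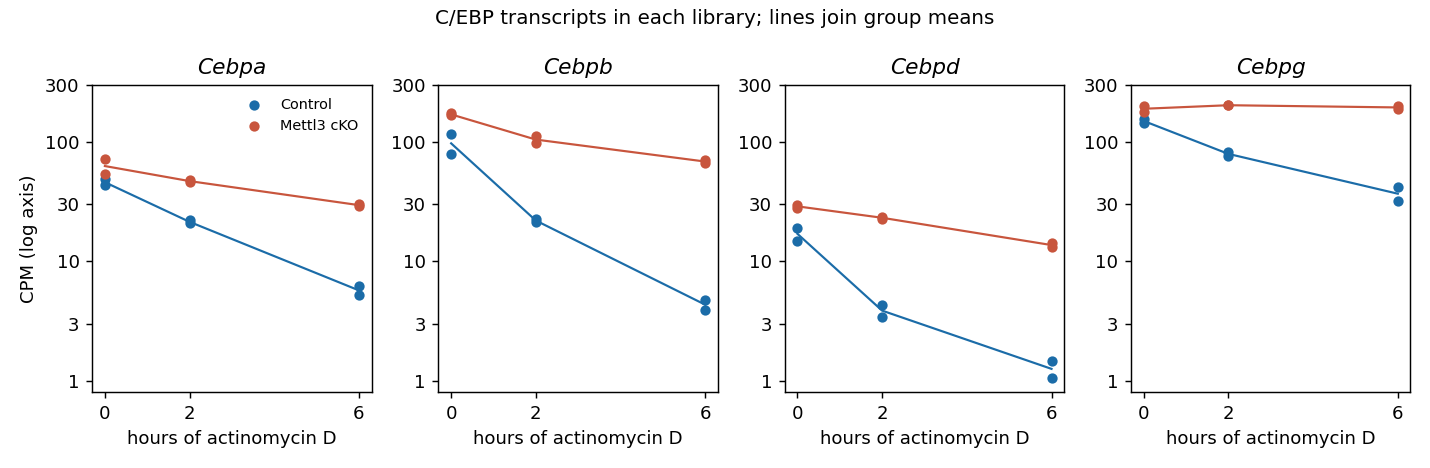
CPM (log axis) of each C/EBP mRNA against hours of actinomycin D, 1 point per library (2 per genotype and time), with lines joining the means of Control (blue) and Mettl3 cKO (red). The points of the 2 genotypes do not overlap for any member at any time, and Cebpg in Mettl3 cKO stays between 178 and 204 CPM. The 6 h Control points came from other animals than the earlier ones.

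Other genes shifted too. The median gene lay 0.07 higher on the log2 scale in Mettl3 cKO at 0 h, 0.15 at 2 h and 0.32 at 6 h. Scaling by the trimmed mean of M-values (TMM) moved these medians by −0.04, −0.12 and −0.28. Relative to the median gene the members were still higher, by 0.27 (Cebpg) to 0.74 (Cebpb) at 0 h, by 0.98 (Cebpa) to 2.44 (Cebpd) at 2 h and by 2.05 (Cebpa) to 3.67 (Cebpb) at 6 h. Ranked by log2 difference among 14488 genes, Cebpd was 397th from the highest and Cebpb 589th at 2 h, while Cebpg was 1638th and Cebpa 2188th.

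Markers of other liver cells moved as well. All 8 macrophage markers were higher in cKO-labelled libraries at 0, 2 and 6 h, where 31.9%, 37.8% and 46.4% of all genes were. Their summed levels were 144 to 147 CPM in Control against 313 to 344 at 0 h, and 173 to 184 against 353 to 364 at 2 h. No macrophage marker was at 0 in any group. The C/EBP genes are also expressed in macrophages, and the part of these cells in the difference at any 1 time was not tested. For the change from 0 to 2 h, 0 of 8 macrophage markers differed between genotypes with edgeR (median log2 difference −0.06). At an unadjusted p under 0.05 1 did, with DESeq2's Wald test 0, and with TMM 1 was called lower. Over all genes 12.5% were called higher and 1.29% lower in this change with edgeR. From 2 to 6 h, 7 of 8 markers differed, all called higher (median 1.58), beside 26.3% of all genes higher and 3.78% lower. Summed levels of these markers at 6 h were 81.6 to 102 CPM in Control against 217 to 238. Endothelial markers fell to between 11.9 and 13.1 CPM in Control at 6 h, against 35.3 to 41.9 in Mettl3 cKO. Stellate cell markers were higher in sum in cKO-labelled libraries at 0 h (167 to 177 CPM against 124 to 127). Of these, 2 of 6 were called higher, near the 31.9% of all genes. Bile duct markers went the other way, with 184 to 195 CPM in Control at 0 h against 65.3 to 72.4 and 307 to 330 at 6 h against 51.2 to 53.8. Of the bile duct markers, 3 of 5 were called lower and 1 higher at 0 h (median log2 difference −2.20), beside 22.5% and 31.9% of all genes. At 6 h 2 of 5 were called lower and 1 higher (median −1.18), beside 19.8% and 46.4% of all genes. Neutrophil markers summed to at most 3.03 CPM in any library, and Ly6g was at 0 in Control at 0 h. The part of these cells in the C/EBP values was not tested. In bulk RNA, fewer cells of a type and less RNA per cell cannot be told apart.

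Cebpa encodes the C/EBP best known for keeping hepatocytes differentiated. At 0 h it had 48.6 and 43.3 CPM in Control, against 53.6 and 72.0 in the cKO-labelled pair. The groups did not overlap, but the nearest libraries were close and the 2 Mettl3 cKO libraries differed more from each other than the lower of them did from Control. The log2 difference was 0.45 (SE 0.10, adjusted p = 7.64e-04), and the call was lost without Mettl3 cKO 0 h replicate 2 (log2 0.22, adjusted p = 0.0648). At 2 h Cebpa had 21.97 and 20.8 CPM in Control, against 46.4 and 47.5 in Mettl3 cKO, replicates that lay far closer to each other than the genotypes did (log2 difference 1.13, SE 0.11, adjusted p = 9.45e-09). At 6 h the values were 5.19 and 6.22 CPM in Control, against 30.01 and 29.05 in Mettl3 cKO (log2 difference 2.37, SE 0.14, adjusted p = 6.76e-13).

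Read along time, Cebpa fell 2.15-fold in Control over the first 2 h, a fitted half-life of 1.82 h (95% interval 1.495 to 2.31), and 3.76-fold over the next 4 h (half-life 2.09 h, 1.81 to 2.49). The 95% intervals of these half-lives overlap. In Mettl3 cKO it fell 1.34-fold over the first 2 h, with a half-life of 4.79 h (3.18 to 9.63), and 1.59-fold over the next 4 h (5.98 h, 4.48 to 8.999). The early fall in Mettl3 cKO was called with all libraries (log2 change −0.42, SE 0.10, adjusted p = 0.00196) and not without Mettl3 cKO 0 h replicate 2 (−0.19, adjusted p = 0.135), when the half-life was 10.54 h. By 6 h, 12.4% of the 0 h mean was left in Control and 47.0% in Mettl3 cKO. In Control, the later half-life and the 12.4% compare libraries of different animals, so they cannot be read as decay alone. The change differed between genotypes by 0.68 on the log2 scale from 0 to 2 h (SE 0.15, adjusted p = 0.00255) and by 1.24 from 2 to 6 h (SE 0.19, adjusted p = 1.60e-05).

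Cebpb encodes the C/EBP that responds to inflammatory and regenerative signals. At 0 h it had 116 and 78.9 CPM in Control, against 167 and 173 in the cKO-labelled pair. The Control libraries were the least alike of any pair for this gene, and both still lay below both Mettl3 cKO libraries (log2 difference 0.81, SE 0.11, adjusted p = 1.00e-06). After 2 h Cebpb was at 21.4 and 22.4 CPM in Control and 97.4 and 112 in Mettl3 cKO (log2 difference 2.25, SE 0.12, adjusted p = 3.14e-13). After 6 h it was at 3.94 and 4.71 CPM, or 82 and 94 reads, in Control and at 70.1 and 66.8 in Mettl3 cKO. This was the widest gap of any member at any time (log2 difference 3.99, SE 0.16, adjusted p = 4.94e-16).

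The early loss of Cebpb in Control was steep, 4.43-fold in 2 h, for a half-life of 0.931 h (95% interval 0.832 to 1.06). From 2 to 6 h it fell another 5.08-fold, with a half-life of 1.71 h (1.47 to 2.03). That is longer than at first, but the 6 h Control libraries came from other animals, so a slowing cannot be read from it. In Mettl3 cKO the half-life of Cebpb was 2.85 h at first (2.18 to 4.13), and the later one was longer, at 6.54 h (4.77 to 10.4). Of the 0 h mean, 4.45% was left at 6 h in Control and 40.3% in Mettl3 cKO. The 4.45% has the same limit. The change differed between genotypes by 1.45 (SE 0.16, adjusted p = 6.10e-07) from 0 to 2 h and by 1.73 (SE 0.22, adjusted p = 1.62e-06) from 2 to 6 h. Of the exonic bases of Cebpb, 20.7% (312 bp) overlap exons of Tmem189 on the other strand, and the library kit does not mark strand, so reads in that stretch cannot be assigned by strand. Tmem189 had 23.9 ± 2.13 CPM in Control at 0 h, 20.8 ± 2.35 at 2 h and 12.9 ± 0.118 at 6 h, against 43.7 ± 3.12, 40.3 ± 0.930 and 32.8 ± 0.0542 in Mettl3 cKO (SD, n = 2 each). Its part in the Cebpb counts was not tested.

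Cebpd encodes another acute phase C/EBP and was the scarcest of the 4 in reads. At 0 h it had 19.1 and 14.9 CPM in Control, against 29.8 and 27.9 in the cKO-labelled pair, without overlap (log2 difference 0.77, SE 0.12, adjusted p = 8.43e-06). After 2 h the Control libraries had 3.41 and 4.32 CPM, or 64 and 77 reads, and the Mettl3 cKO libraries 23.7 and 22.6. The genotypes were then further apart than for any other member (log2 difference 2.59, SE 0.15, adjusted p = 8.24e-13). After 6 h there were 1.06 and 1.45 CPM in Control, only 22 and 29 reads, and 13.2 and 14.1 in Mettl3 cKO (log2 difference 3.45, SE 0.19, adjusted p = 2.23e-13). Exons of Spidr on the other strand cover 15.0% (562 bp) of its exonic bases, and Spidr stayed between 394 and 502 reads in every library.

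Cebpd and Cebpb started to fall at almost the same pace in Control. Cebpd lost 4.41-fold in the first 2 h, with a half-life of 0.935 h (95% interval 0.812 to 1.10). From 2 to 6 h Cebpd had a half-life of 2.47 h (1.88 to 3.59) there, measured against libraries of other animals, so not decay alone. In Mettl3 cKO it hardly fell at first, by 1.25-fold (log2 change −0.32, SE 0.11, adjusted p = 0.0262), for a half-life of 6.28 h with a wide interval of 3.63 to 23.2. That small fall was no longer called with TMM (−0.22, adjusted p = 0.116) or with DESeq2 size factors (−0.19, adjusted p = 0.170, half-life 10.4 h), or without Mettl3 cKO 0 h replicate 1 (adjusted p = 0.150) or without Mettl3 cKO 2 h replicate 1 (0.0668) or 2 (0.151). It then fell 1.69-fold from 2 to 6 h (half-life 5.27 h, 3.95 to 7.89). At 6 h 7.39% of the 0 h mean was left in Control and 47.4% in Mettl3 cKO. The 7.39% rests on the same 6 h libraries of other animals. The difference between genotypes in the change from 0 to 2 h was the largest of the 4 members (1.82, SE 0.19, adjusted p = 3.01e-07), 274th from the highest among 14488 genes. The difference from 2 to 6 h was smaller (0.86, SE 0.28, adjusted p = 0.0215). Its call was lost with TMM (0.70, adjusted p = 0.0651) and DESeq2 size factors (0.65, adjusted p = 0.0869). It was also lost without Control 2 h replicate 2 (0.68, adjusted p = 0.129), Control 6 h replicate 1 (0.65, adjusted p = 0.152) or Mettl3 cKO 6 h replicate 2 (0.82, adjusted p = 0.0528).

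Cebpg encodes the short partner protein of the family and was the only member whose mRNA was not called as falling in Mettl3 cKO. At 0 h it had 144 and 155 CPM in Control, against 178 and 201 in the cKO-labelled pair, the smallest starting difference of the 4 (log2 difference 0.34, SE 0.08, adjusted p = 0.00105). At 2 h it had 82.4 and 76.3 CPM in Control and 202 and 204 in Mettl3 cKO (log2 difference 1.35, SE 0.08, adjusted p = 2.29e-12). At 6 h it had 41.8 and 31.8 CPM in Control and 189 and 199 in Mettl3 cKO (log2 difference 2.40, SE 0.09, adjusted p = 1.06e-16). Control libraries thus stepped down at each time, while in Mettl3 cKO the values of 0 and 6 h overlapped and both 2 h values lay just above them.

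In Control, Cebpg fell 1.89-fold over the first 2 h, the slowest early loss of the 4, with a half-life of 2.18 h (95% interval 1.84 to 2.69), and 2.15-fold over the next 4 h (half-life 3.62 h, 3.09 to 4.36, and 5.49 h with DESeq2 size factors). In Mettl3 cKO the log2 change was 0.10 from 0 to 2 h (95% interval −0.06 to 0.26, adjusted p = 0.336) and −0.06 from 2 to 6 h (−0.22 to 0.10, adjusted p = 0.567), so no half-life was defined early and the lower bound was 31.3 h. At 6 h 24.6% of the 0 h mean was left in Control and 102.6% in Mettl3 cKO. In Control, the fall after 2 h and the 24.6% rest on libraries of other animals and are not decay alone. With TMM the early change in Mettl3 cKO was called as a rise (0.20, adjusted p = 0.0252), as it was with DESeq2 size factors (0.23, adjusted p = 0.0122), and the later change turned to 0.11 and 0.10, neither of them called. The change differed between genotypes by 1.02 from 0 to 2 h (SE 0.11, adjusted p = 6.58e-07) and by 1.04 from 2 to 6 h (SE 0.12, adjusted p = 4.96e-07).

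**Figure D2:**
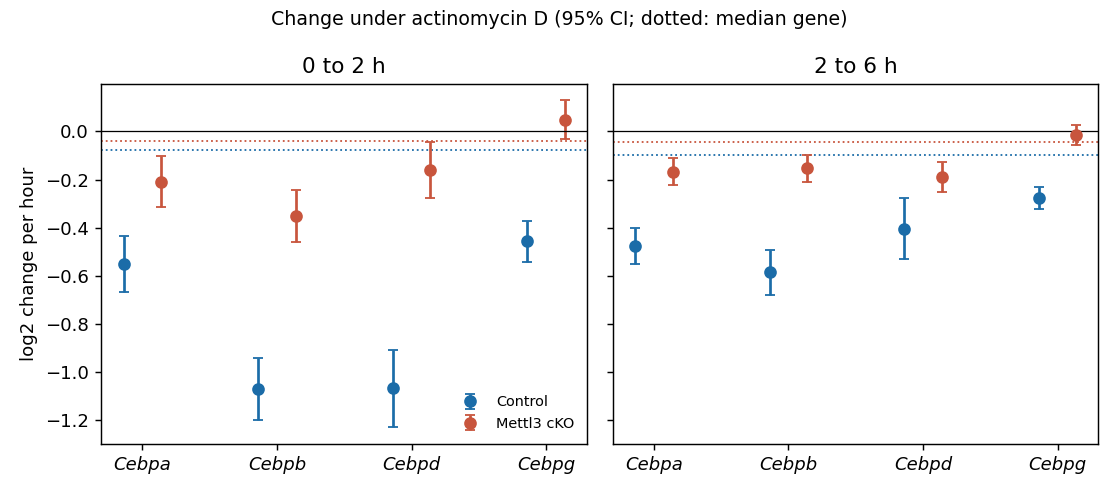
Fitted log2 change per hour of each C/EBP mRNA from 0 to 2 h (left) and from 2 to 6 h (right) in Control (blue) and Mettl3 cKO (red), with 95% intervals and the median of 14488 genes as dotted lines. In Control, Cebpb and Cebpd fell fastest in the first 2 h, and the values of all 4 members lie nearer to 0 in Mettl3 cKO in both intervals. The later Control interval compares libraries of different animals.

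In order of early loss in Control, Cebpb and Cebpd came first with intervals that overlap almost wholly, and Cebpa and Cebpg followed with intervals that overlap each other and not those of the first pair. Among the 14488 genes, Cebpb was 693rd and Cebpd 700th from the steepest fall in that interval, Cebpa 2200th and Cebpg 2799th. In Mettl3 cKO the order with all libraries was Cebpb, Cebpa, Cebpd and Cebpg, in which the intervals of Cebpa overlap those of both its neighbours, and without Mettl3 cKO 0 h replicate 2 Cebpa came after Cebpd. ATTTA copies did not follow this order, since Cebpb had none and Cebpd 7, and over 4 genes such an order is a description only. Differences between members were not tested.

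**Figure D3:**
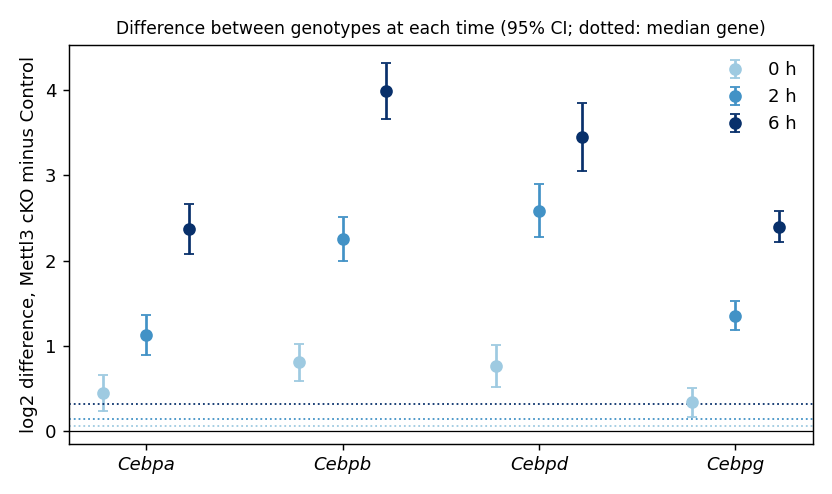
Fitted log2 difference (Mettl3 cKO minus Control) for each C/EBP mRNA at 0, 2 and 6 h (light to dark) with 95% intervals, and the median of 14488 genes at each time as dotted lines. For every member the difference grows from 0 to 2 h and from 2 to 6 h, up to 3.99 for Cebpb. At 6 h the Control libraries came from other animals than at 0 and 2 h.

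Levels were compared between members only per length, as CPM divided by the exonic length in kb (RPKM). For Cebpg this level is uncertain, because its annotated exons sum to 5621 bases over isoforms of very different length. In Control at 0 h the level was 64.6 ± 17.3 RPKM for Cebpb, 26.6 ± 1.39 for Cebpg, 17.4 ± 1.43 for Cebpa and 4.54 ± 0.802 for Cebpd (SD, n = 2 each), and no 2 neighbours in that order overlapped. At 2 h in Control Cebpb (14.6 ± 0.466 RPKM) and Cebpg (14.1 ± 0.772) overlapped, and at 6 h Cebpg led with 6.55 ± 1.25 RPKM before Cebpb with 2.88 ± 0.365. In Mettl3 cKO the order of 0 h held at every time, with Cebpb at 113 ± 3.18 RPKM and Cebpg at 33.7 ± 2.83 at 0 h, and 45.5 ± 1.56 and 34.6 ± 1.25 at 6 h. Cebpb therefore went from 57.1% to 24.1% of the summed RPKM of the 4 members in Control between 0 and 6 h, and from 63.4% to 47.9% in Mettl3 cKO. Cebpg went from 23.5% to 54.9% in Control and from 18.9% to 36.4% in Mettl3 cKO. The 6 h shares in Control rest on the libraries from other animals. Read counts per gene do not separate the long and short protein forms that Cebpa and Cebpb mRNAs encode from different start codons.

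**Figure D4:**
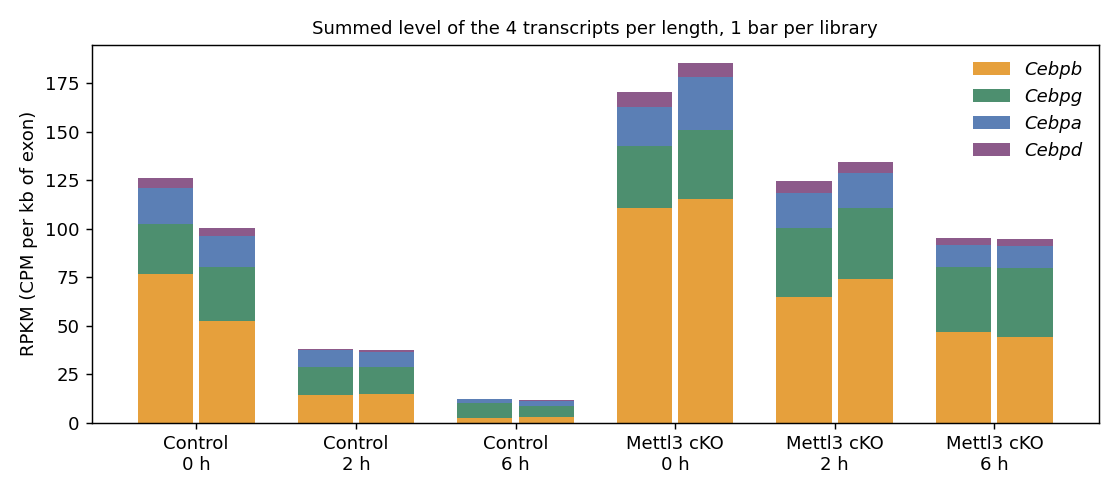
RPKM of the 4 C/EBP mRNAs stacked in 1 bar per library, 2 bars for each genotype and time. Cebpb (orange) makes up 57.1% of the mean sum in Control at 0 h and 24.1% at 6 h, while in Mettl3 cKO it is still 47.9% at 6 h. The 6 h Control bars came from other animals than the earlier ones.

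The remaining family members and related bZIP factors did not share one direction. Cebpe, a C/EBP of granulocytes, had at most 2 reads in any library and was not tested. Of the 6 others that were, 1 was higher and 2 lower in Mettl3 cKO at 0 h, where 31.9% and 22.5% of all genes were. Nfil3, a repressor of the same bZIP class, was higher (log2 difference 1.02, adjusted p = 7.50e-13), while Cebpz, whose product shares the name but is not a bZIP protein, was lower (−0.58, adjusted p = 6.97e-08), as was the PAR bZIP factor Tef (−0.72, adjusted p = 2.21e-07). The change from 0 to 2 h differed for 3 of 6 (12.5% of all genes, and 1.29% the other way), all towards a smaller fall in Mettl3 cKO: Nfil3 by 2.16, Ddit3, the stress-induced CHOP, by 0.60 and Cebpz by 0.35 (adjusted p = 5.69e-14, 1.69e-06 and 0.00900). Median differences of this list were −0.17 at 0 h and 0.32 for the early change, beside 0.07 and 0.06 over all genes.

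Regulators and partners of C/EBP proteins were mixed at 0 h and differed in one direction in the early change. Of 15 tested, 7 were higher and 4 lower in Mettl3 cKO at 0 h, not far from the 31.9% and 22.5% of all genes, among them Atf4, a bZIP partner of C/EBPγ (log2 difference 0.38, adjusted p = 3.30e-06), and Atf5, its relative (−0.72, adjusted p = 4.12e-08). Trib1, a pseudokinase that directs C/EBPα to the Cop1 ubiquitin ligase, was higher (0.55, adjusted p = 5.07e-06), as was its relative Trib3 (0.64, adjusted p = 3.92e-10). Cop1 is listed in the table under its older symbol Rfwd2. From 0 to 2 h the change differed for 7 of 15 (12.5% of all genes, and 1.29% the other way), all towards a smaller fall in Mettl3 cKO. With TMM it did for 8 of 15, 1 of them the other way. The difference was 1.38 for Trib3, 0.66 for the ubiquitin ligase subunit Fbxw7, 0.62 for Trib1 and 0.59 for Atf4 (adjusted p = 6.71e-12, 8.68e-04, 0.00562 and 7.20e-06). The list's median for this change was 0.33, beside 0.06 over all genes. Within this list Trib1 lost more than any C/EBP, as it fell by 3.52 on the log2 scale in Control within 2 h. In Mettl3 cKO Trib1 fell by 2.91.

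Metabolic target genes of C/EBPα were mostly lower where the C/EBP mRNAs were higher. Of 11 tested, 0 were higher and 9 lower in Mettl3 cKO at 0 h (22.5% of all genes were lower), with a median of −1.13 beside 0.07 over all genes. Otc and Cps1, enzymes of the urea cycle, differed by −2.15 and −1.13 (adjusted p = 8.16e-13 and 4.17e-12), the thyroxine carrier Ttr by −1.02 (adjusted p = 4.05e-12) and Alb by −0.18 (adjusted p = 4.57e-04). At 2 h the counts were again 0 higher and 9 lower (37.8% and 21.3% of all genes). At 6 h they were 1 higher and 8 lower (46.4% and 19.8%). In the change from 0 to 2 h, 0 of 11 differed between genotypes with edgeR (2 at an unadjusted p under 0.05), and 1 of 11 with TMM and with DESeq2's Wald test. Over all genes 12.5% were called higher and 1.29% lower in that change with edgeR. This list was chosen with earlier results of these data known, as were the others, and is no independent evidence of a direction.

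Acute phase targets of C/EBPβ and C/EBPδ split at 0 h, with 7 higher and 6 lower of 14 tested (5 and 6 with TMM), beside 31.9% and 22.5% of all genes. Haptoglobin (Hp) was higher (log2 difference 1.98, adjusted p = 8.48e-18) and serum amyloid Saa1 lower (−0.79, adjusted p = 1.16e-05). Orm1 was lower too (−0.58, adjusted p = 0.00384). Hpx was barely higher (0.16, adjusted p = 0.0209), a call lost with TMM (0.11, adjusted p = 0.0771). Members of the Saa and Orm families have near-identical copies between which unique reads may be split. From 0 to 2 h 14 of 14 were called higher in both genotypes (12.9% and 12% of all genes were), with TMM as well. Values are relative to the library total, so this is a rise in share. Hepatocyte markers rose too, with 6 of 6 called higher in both genotypes. Their medians were 0.47 in Control and 0.41 in Mettl3 cKO, beside 0.54 and 0.51 for the acute phase list, and Fgb is in both lists. In that change 0 of 14 acute phase targets differed between genotypes, where 12.5% of all genes were higher and 1.29% lower. It was also 0 at an unadjusted p under 0.05 and 0 with DESeq2's Wald test (median −0.04).

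Targets shared by Atf4 and C/EBPγ showed 2 higher and 5 lower of 8 at 0 h, beside 31.9% and 22.5% of all genes. In the early change 3 of 8 differed (12.5% of all genes, and 1.29% the other way), all towards a smaller fall in Mettl3 cKO. Those 3 were Chac1, a glutathione-degrading enzyme (3.02, adjusted p = 5.69e-14), the mTORC1 inhibitor Ddit4 (1.22, adjusted p = 5.02e-05) and Sesn2 (0.90, adjusted p = 3.74e-06). At 0 h Asns and Psat1, enzymes of asparagine and serine synthesis, were lower (−0.22, adjusted p = 0.00194, and −0.32, adjusted p = 3.58e-05). The cystine transporter Slc7a11 was slightly lower (−0.12, adjusted p = 0.0457) and Sesn2 higher (0.37, adjusted p = 5.54e-05). The list's medians were −0.18 at 0 h and 0.16 for the early change, beside 0.07 and 0.06 over all genes.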

How the data were processed

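RNA was sequenced in 12 libraries. The authors prepared poly(A) libraries without strand marking. Alignment (STAR 2.5.3a, mm10) was followed by counting of unique reads over Gencode genes (featureCounts 2.0.1). The deposited values are whole-number counts per gene, without normalization. Which Gencode release was used is not stated. Coordinates come from Gencode M21, in which 40606 of 48440 identifiers (83.8%) had the same version.

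Counts were scaled to library totals, which ran from 16952084 to 20914516. Genes were kept by filterByExpr (minimum count 10, minimum total 15), leaving 14488. Contrasts of 6 group means were tested with edgeR 4.0.16 in R 4.3.3, with standard errors and 95% intervals from the same fit. Half-lives are the length of the interval divided by the fitted log2 fall, and are relative to the library total. TMM, DESeq2 1.42.0 size factors, no filter, DESeq2's Wald test, only the libraries compared, the replicate number as a block and leaving out each library were tried. In the last of these, a group left with 1 library takes its spread from the other groups. The fit was tested on simulated data. No 2 replicates were duplicates (chi-square per gene 2.14 to 9.16 over genes with at least 20 reads).

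The members, the lists and the tests were chosen with earlier results of these data known. Named genes are the 4 members, up to 4 genes of each list in list order that passed the test with at least 10 CPM on average, up to 2 that did not where none passed, the 3 genes most correlated with each member, and Mettl3 as the targeted gene. Xist, Ddx3y, Cebpe, Ly6g and the overlapping genes Tmem189 and Spidr fall outside this rule and were named after their values were seen. Supplementary tables of the paper were not used.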

Additional observations from a re-analysis of the deposited data

Results flagged for a closer look

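The test of the difference itself found that the change under actinomycin D was not the same in both genotypes for all 4 C/EBP mRNAs, in both intervals (edgeR's quasi-likelihood test, adjusted over 14488 genes). From 0 to 2 h the change in Mettl3 cKO minus that in Control was 0.68 for Cebpa, 1.45 for Cebpb, 1.82 for Cebpd and 1.02 for Cebpg on the log2 scale. From 2 to 6 h it was 1.24 for Cebpa, 1.73 for Cebpb, 0.86 for Cebpd and 1.04 for Cebpg, values that rest on the 2 Control libraries at 6 h that stood apart. The later difference of Cebpd lost its call with TMM, DESeq2 size factors and DESeq2's Wald test (adjusted p = 0.0651, 0.0869 and 0.105), and without any 1 of 3 libraries (adjusted p from 0.0528 to 0.152). Groups of 2 libraries are too small for a check of single libraries far from their group.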

How the results depend on the processing

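All 9 comparisons of Cebpb kept their direction and call under the other scalings, without the filter, in DESeq2's Wald test, from the libraries compared alone, with the replicate number as a block and without each library. The others did as well, with these exceptions. For Cebpd the change from 0 to 2 h in Mettl3 cKO lost its call with TMM (−0.22), DESeq2 size factors (−0.19) and the Wald test (−0.19, adjusted p = 0.322), and its difference between genotypes from 2 to 6 h did with the same 3 (0.70, 0.65 and 0.64, the last with adjusted p = 0.105). For Cebpg the change from 0 to 2 h in Mettl3 cKO became a called rise (0.20, 0.23 and 0.23, the last with adjusted p = 0.0200), and the change from 2 to 6 h there turned sign (0.11, 0.10 and 0.10). The cause was not tested. Results that lost a call without 1 library are given with their range over all 12 such fits, whether the call was lost or kept. For Cebpa the range was 0.22 to 0.65 at 0 h and −0.62 to −0.19 for its early change in Mettl3 cKO. For Cebpd it was −0.36 to −0.27 for that early change and 0.65 to 1.11 for the later difference between genotypes. The half-life of Cebpg in Control moved to 2.70 h from 0 to 2 h with TMM and with DESeq2 size factors, and to 5.49 and 5.55 h from 2 to 6 h with DESeq2 size factors and the Wald test. In Mettl3 cKO the half-life from 0 to 2 h moved for Cebpd to 10.4 and 10.51 h with the same 2 settings, and for Cebpa to 10.54 h without Mettl3 cKO 0 h replicate 2. No other half-life given in the report moved by over 1.5 times.

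The replicate numbers did not pair the libraries (correlations of same-numbered deviations from −0.17 to 0.06), and as a block they changed no call of a member. With the block the differences at 0 h were 0.44 for Cebpa, 0.81 for Cebpb, 0.77 for Cebpd and 0.34 for Cebpg, and those of the change from 0 to 2 h were 0.69, 1.44, 1.82 and 1.02.

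A scaling shifts all genes alike, members included, and the counts of calls over all genes changed with it. With TMM, genes called higher and lower numbered 4264 and 3715 at 0 h (4627 and 3261 with totals), 4658 and 4166 at 2 h (5474 and 3092), 5177 and 4718 at 6 h (6723 and 2873), 3884 and 4052 for Control from 0 to 2 h (1865 and 5263), 3159 and 3389 for Mettl3 cKO (1743 and 4233), 3871 and 4693 for Control from 2 to 6 h (1424 and 7017), 3009 and 3092 for Mettl3 cKO (1194 and 4774), 1509 and 465 for the difference in the early change (1816 and 187) and 2610 and 1483 for that in the later one (3804 and 548). Fewest reads, 22 and 29, stood behind Cebpd in Control at 6 h.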

Other observations

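Across the 12 libraries the C/EBP mRNAs ran close together. Pearson correlations of log2(CPM + 0.5) between members lay between 0.92 (Cebpa and Cebpg) and 0.99 (Cebpb and Cebpd). The libraries share their genotype and time, so these values describe a common pattern and are no test. Of 8623 genes compared in the same way, the 3 most like Cebpa were Map1s (0.997), Sfmbt1 and Gpatch3 (both 0.995), and those most like Cebpb were the zinc finger repressor Zbtb7a (0.998), the dual-specificity phosphatase Dusp8 and Fbxo38 (both 0.996). Cebpd ran closest to Dcun1d3, the phosphatase Ppm1d (both 0.996) and Foxa3 (0.995), a forkhead factor of hepatocytes. Cebpg ran closest to Prkrir (0.995), Aar2 and Stbd1 (both 0.994).

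Atf4 and its partner Cebpg both fell in Control from 0 to 2 h, but in Mettl3 cKO only Atf4 was called as falling. No test compared these genes with each other. From 0 to 2 h the log2 change was −2.17 in Control and −1.58 in Mettl3 cKO for Atf4. For Cebpg it was −0.92 and 0.10. The difference in change between genotypes had the same sign for both genes early (0.59 and 1.02) and opposite signs late. From 2 to 6 h Atf4 fell by 1.62 on the log2 scale in Control and by 2.14 in Mettl3 cKO, so that the difference in change was −0.52 (SE 0.09, adjusted p = 1.12e-04), while Cebpg differed by 1.04 the other way. The Control side of both values rests on the 6 h libraries that stood apart.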
